A study of Homo sapiens with 30 samples.

Results

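HCT116 cells with and without p53 were compared on 6 of the 30 arrays of the series, by taking every array labelled with this line: 3 of p53 wild-type cells and 3 of p53-null cells. Each genotype was measured after 0, 12 and 24 h of hypoxia, with 1 array per genotype and time, so the comparison consists of 3 pairs matched by time. HCT116 is a colon carcinoma line grown as a monolayer, and hypoxia was an oxygen level below 0.01% in an anoxic incubator. The 0 h arrays are the cells before hypoxia. The labels do not say how the p53-null cells were made or whether each genotype is a single clone. H1299, a non-small cell lung cancer line, is used beside HCT116, with 1 array per time at 0 and 24 h for p53-null cells and for cells with p53 reintroduced, 4 arrays in all.

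p53 is a transcription factor that is kept low by the ubiquitin ligase MDM2 and accumulates under stress, including severe hypoxia and DNA damage. It binds DNA as a tetramer at a response element made of a pair of decamer half-sites and activates genes for cell cycle arrest, cell death, DNA repair, nucleotide supply and metabolism. It also lowers many cell cycle genes indirectly, since its target CDKN1A inhibits the cyclin-dependent kinases that keep the DREAM complex off their promoters.

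DDB2, the damage-sensing subunit used in nucleotide excision repair, is shown first because it had the widest gap between the genotypes among the p53 target genes and because its promoter window held the p53 element. The windows, from RefSeq on GRCh38.p14, ran from 250 bases before to 50 bases after each annotated start. The consensus p53 response element was searched as 2 half-sites of 10 bases with a spacer of 0 to 13 bases; it is its own reverse complement, so 1 search covers both strands. Of 27305 genes with a window, 10 (0.0366%) held it, and of 152 genes of the p53 target lists with a window, 1 (0.658%) did. That gene was DDB2, with the element on the plus strand at chr11:47214975-47215003 (coordinates include 4 flanking bases on either side), downstream of 1 of the gene's 2 annotated starts. Capitals mark the half-sites and the lower-case base between them is the spacer of 1 base.
DDB2: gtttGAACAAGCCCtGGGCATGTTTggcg
None of the 16 windowed genes among the 20 described below held these letters in these windows, nor did any of the 6127 tested genes with a window. Since all listed p53 targets but DDB2 lacked a match, this search misses most p53 target genes. Whether the DDB2 element acts in these cells was not tested.

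DDB2 had intensities of 46, 30 and 33 on the p53-null arrays at 0, 12 and 24 h and of 71, 193 and 137 on the wild-type arrays. The genotypes did not overlap: all 3 wild-type values lay above all 3 null values, and the gap was narrowest before hypoxia. The within-time differences were 0.49, 2.18 and 1.66 on the log2(intensity + 16) scale used for every difference below, always wild type minus null. DDB2 was too dim for the set of tested genes. In a fit without the filter on dim genes its mean difference was 1.44 (SE 0.414, n = 3 pairs, limma adjusted p = 0.676), so it was not called.

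TRIAP1, an inhibitor of apoptosome assembly, had a like course, with intensities of 38, 33 and 38 in null cells and 60, 107 and 101 in wild-type cells. RRM2B, the p53-inducible small subunit of ribonucleotide reductase, read 34, 30 and 20 against 57, 66 and 61. Neither gene overlapped between genotypes, both were below the filter, and in the fit without it their adjusted p-values were 0.597 and 0.568. TP53INP1, which promotes p53 phosphorylation and autophagy, was bright enough to be tested. Its values were 108, 72 and 91 in null cells and 129, 179 and 140 in wild-type cells, again with no overlap (log2 difference 0.64, SE 0.170, limma adjusted p = 0.428).

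**Figure D1:**
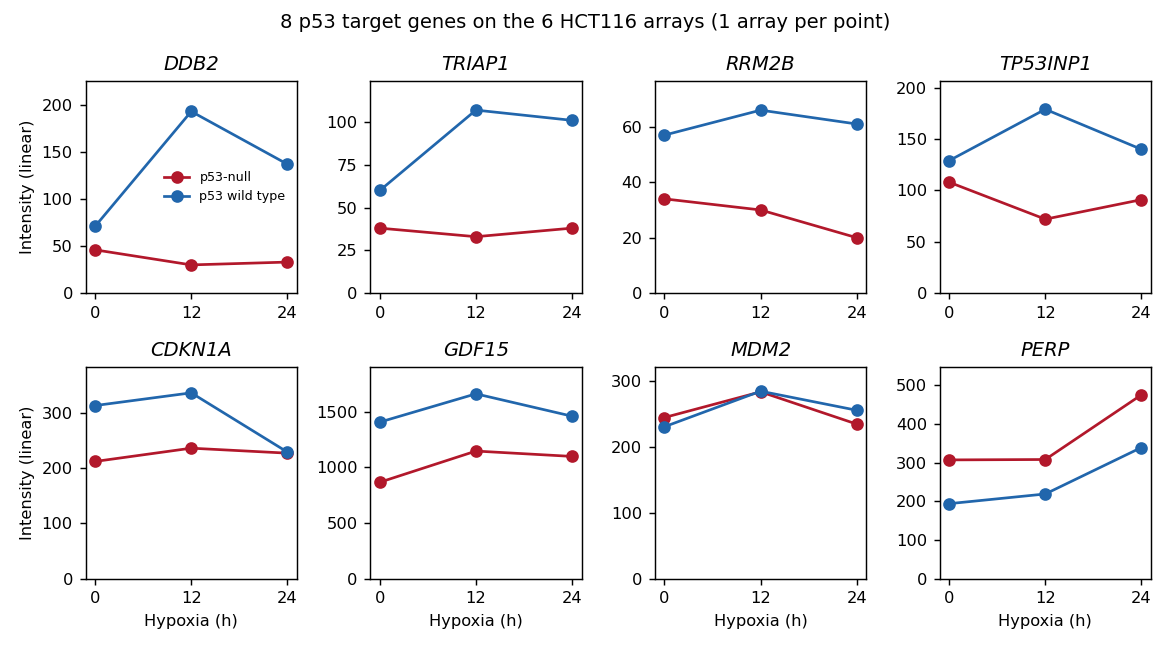
Deposited intensity (linear, from 0) against hours of hypoxia for 8 p53 target genes, with p53-null arrays in red and p53 wild-type arrays in blue, 1 array per point and no error bars. DDB2 reached 193 in wild-type cells at 12 h against 30 in null cells, while MDM2 lay at 285 against 284 at that time and PERP was lower in wild-type cells at each time.

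Counted over all 142 annotated p53 target genes, dim or not, 39 were higher in wild-type cells at all 3 times (27.5%), against 12% of all 12690 genes. In the other direction 14 p53 targets (9.86%) were lower at all 3 times, against 8.52% of all genes. More than 2-fold higher in wild-type cells were 0 of the 142 at 0 h, 3 at 12 h (DDB2, TRIAP1 and TP53INP1) and 4 at 24 h (DDB2, TRIAP1, RRM2B and DCP1B, a decapping factor). Over all genes that mark was passed by 61 at 0 h (0.481%), 15 at 12 h (0.118%) and 47 at 24 h (0.37%). More than 2-fold lower were 2, 1 and 0 of the 142 at the 3 times, and 55, 45 and 78 of all genes. DCP1B, at 30, 16 and 8 in null cells and 35, 45 and 47 in wild-type cells, did not overlap either. All of these counts are descriptions, as these dim genes lie near the null entries of the arrays.

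The 6 arrays were alike in overall signal. Null entries, which the sources used here do not explain, made up 31.2% to 36.2% of the 35356 probe sets, and the median listed intensity was 155 to 174. Pairwise correlations over the tested genes ran from 0.933 to 0.987. For arrays, precision is limited by their number, which is 1 per genotype and time here. Of 17 colon epithelial markers, 9 lay above the array median on every array (KRT8 read 1106 to 1644, KRT19 516 to 884). KRT20 and GPA33 were null on all 6, and the summed list was 4866 to 5313 in null and 4584 to 5508 in wild-type cells. Summed leukocyte markers were 1860 to 1899 and 1859 to 1886, endothelial markers 2427 to 2506 and 2421 to 2639, fibroblast markers 1176 to 1448 and 1175 to 1204. Lung and renal markers summed to 1811 to 2433 and 510 to 628 in null cells and to 1825 to 1877 and 558 to 591 in wild-type cells. Above the array median lay 5 of 10 leukocyte, 7 of 9 endothelial and 4 of 9 fibroblast markers on each array. Of lung markers 4 or 5 of 7 did, and of renal markers 1 or 2 of 3. The count above the median thus does not set the colon markers apart. Probes for genes foreign to epithelium, such as CD79A at 601 to 698, were also bright, so a listed intensity alone does not show expression. ITGAM, TEK, COL3A1, FAP and POSTN were null on all 6.

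The p53-null array at 0 h stood apart. On it 87 probe sets, 39 of them with a gene name, lay more than 2-fold above all 5 other arrays, against 1 to 24 on the others. Among tested genes these were 27, including INTS13, a subunit of the Integrator complex, at 2733 against 967 in wild-type cells at 0 h and 539 to 591 on the 4 hypoxic arrays. SRRM2, a spliceosome-associated protein, CBX5, a heterochromatin protein, and RICTOR, a subunit of mTOR complex 2, were also among them. Their median level, relative to the array median, was 2.68 on that array, 1.30 on the wild-type array at 0 h and 0.57 to 0.71 on the hypoxic arrays. In H1299 all 27 were higher in the p53-null than in the p53-reintroduced library labelled 0 h, where 45.5% of all genes were. Between the libraries labelled 24 h 23 of the 27 were, where 57.4% of all genes were. The p53-reintroduced library labelled 0 h had hypoxia genes at a hypoxic level, as given below, so genotype and oxygen cannot be told apart in that count. The median of the 27 in H1299 was 1.54 on the null library at 0 h and 0.70 to 0.95 on the other 3. Whether RNA quality or growth state moved these genes was not tested. The wild-type array at 24 h had the most probe sets more than 2-fold below all others, 56, against 2 to 27.

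**Figure D2:**
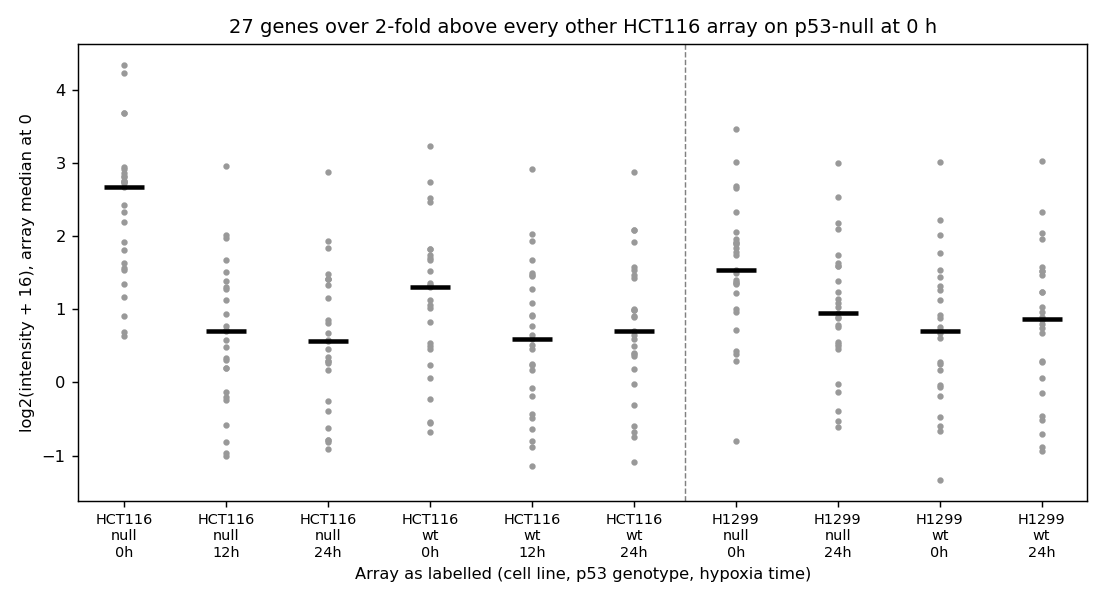
Median-centred log2(intensity + 16) of the 27 tested genes that were more than 2-fold above every other HCT116 array on the p53-null array at 0 h, on the 6 HCT116 and 4 H1299 arrays as labelled. Grey points are genes and black bars are medians, which fall from 2.68 on that array to between 0.57 and 1.30 on the other HCT116 arrays.

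The H1299 libraries went against their time labels. The median level of 37 hypoxia genes was 0.75 and 0.72 on the 2 HCT116 arrays at 0 h and 2.10 to 2.38 on the hypoxic ones. In H1299 it was 0.68 on the null library labelled 0 h and 1.56 on that labelled 24 h. It was 1.52 on the p53-reintroduced library labelled 0 h and 0.68 on that labelled 24 h. H1299 values are therefore given mainly as means over both libraries of a genotype, which do not depend on how the times are matched.

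The fit across all 7614 tested genes asked which genes differed by genotype beyond the spread of the difference over the 3 times. It called 3 genes, or 0.0394%, at an adjusted p below 0.05 (limma with time as a block, Benjamini-Hochberg): LCN2, which was higher in wild-type cells, and ANXA3 and FERMT1, which were lower. At an unadjusted p below 0.05 there were 326 genes higher (4.28%) and 208 lower (2.73%). The replicates here are times of one experiment, so the p-values measure how steady the difference was over the times and not the spread between cultures or clones. An exact permutation over 3 pairs cannot go below 0.25 for a single gene.

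LCN2, a secreted siderophore-binding protein of innate defence, read 60, 69 and 60 in null cells at 0, 12 and 24 h and 210, 207 and 152 in wild-type cells. The groups were far apart at every time. The mean difference was 1.37 on the log2 scale (SE 0.0912, n = 3 pairs, limma adjusted p = 0.0308), or 2.59-fold. A second LCN2 probe set gave 55, 73 and 73 against 157, 163 and 121, a difference of 0.99. In H1299 the null libraries read 44 and 46 and the p53-reintroduced ones 62 and 73, also without overlap.

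ANXA3, a calcium-dependent phospholipid-binding annexin, read 156, 136 and 83 in null cells and 79, 64 and 35 in wild-type cells. It was lowest at 24 h in both genotypes while the gap held, and the highest wild-type value lay just under the lowest null value. The difference was -0.91 (SE 0.0598, limma adjusted p = 0.0308). FERMT1, or kindlin-1, which activates integrins in epithelial cells, read 296, 253 and 220 against 173, 139 and 119. The genotypes did not overlap (-0.77, SE 0.0593, limma adjusted p = 0.0472). ANXA3 was null on all 4 H1299 libraries, and FERMT1 read 169 and 106 in null and 113 and 164 in p53-reintroduced libraries.

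Leaving out the 0 h pair or the 12 h pair left 0 genes called, and leaving out the 24 h pair left 2, in fits with 1 residual degree of freedom in place of 2. The differences themselves held in size: without 1 pair LCN2 was at 1.28 to 1.48, ANXA3 at -0.93 to -0.89 and FERMT1 at -0.79 to -0.76. These genes were called for their steadiness over the times, so this is no separate support. The split of 1 higher and 2 lower became 4 and 3 without centring of the arrays and 3 and 3 after quantile normalization.

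The largest steady differences below the threshold are given as values. HDAC2, a histone deacetylase, read 133, 94 and 88 in null cells and 277, 182 and 229 in wild-type cells (1.02, SE 0.0910, limma adjusted p = 0.0516). NOLC1, a nucleolar phosphoprotein, read 112, 119 and 75 against 194, 251 and 154 (0.87, limma adjusted p = 0.0516), and its second, dimmer probe set gave 1.48. Both were above the null range on each wild-type array. ANAPC16, a small subunit of the anaphase-promoting complex, read 258, 262 and 254 against 453, 422 and 396, and its second probe set gave 0.88 against 0.69. SPCS1, a signal peptidase subunit, read 401, 458 and 443 against 686, 668 and 693. In both of these the wild-type values were tightly grouped and clear of the null values. S100A4, a calcium-binding protein linked to motility, read 155, 162 and 170 against 228, 247 and 345. TMEM158, a transmembrane protein, read 33, 96 and 196 in null cells and 72, 146 and 512 in wild-type cells, highest at 24 h in both. The other 3 were ARHGAP18 (0.60), BLOC1S2, an organelle biogenesis subunit (0.68), and SLC45A3, a membrane transporter (0.56). Their genotypes overlapped across times, and the wild-type value was the higher at each time.

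On the lower side PKIB, an inhibitor of protein kinase A, had the widest gap, with 291, 249 and 284 in null cells and 112, 84 and 141 in wild-type cells (-1.20, SE 0.103, limma adjusted p = 0.0516). No wild-type value came near the null range. SDC1, the heparan sulfate proteoglycan syndecan-1, read 381, 513 and 549 against 273, 292 and 291. Its null values were higher under hypoxia than before it, while its wild-type values lay close together. FASN, fatty acid synthase, read 271, 322 and 287 against 148, 196 and 199, and ACSL5, an acyl-CoA synthetase, 372, 386 and 294 against 244, 226 and 183. SLC20A1, a sodium-phosphate cotransporter, read 387, 216 and 234 against 208, 139 and 141. VASP, an actin polymerase, read 360, 269 and 299 against 201, 162 and 204. None of these overlapped between genotypes, and the same held for RHOBTB3 (-0.78). PERP, a desmosomal protein and p53 target, did overlap across times. Over the 20 genes, 15 had genotypes that did not overlap, where 4.77% of tested genes did so on the higher side and 2.9% on the lower. The genes were ranked on these differences, so that count supports nothing.

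**Figure D3:**
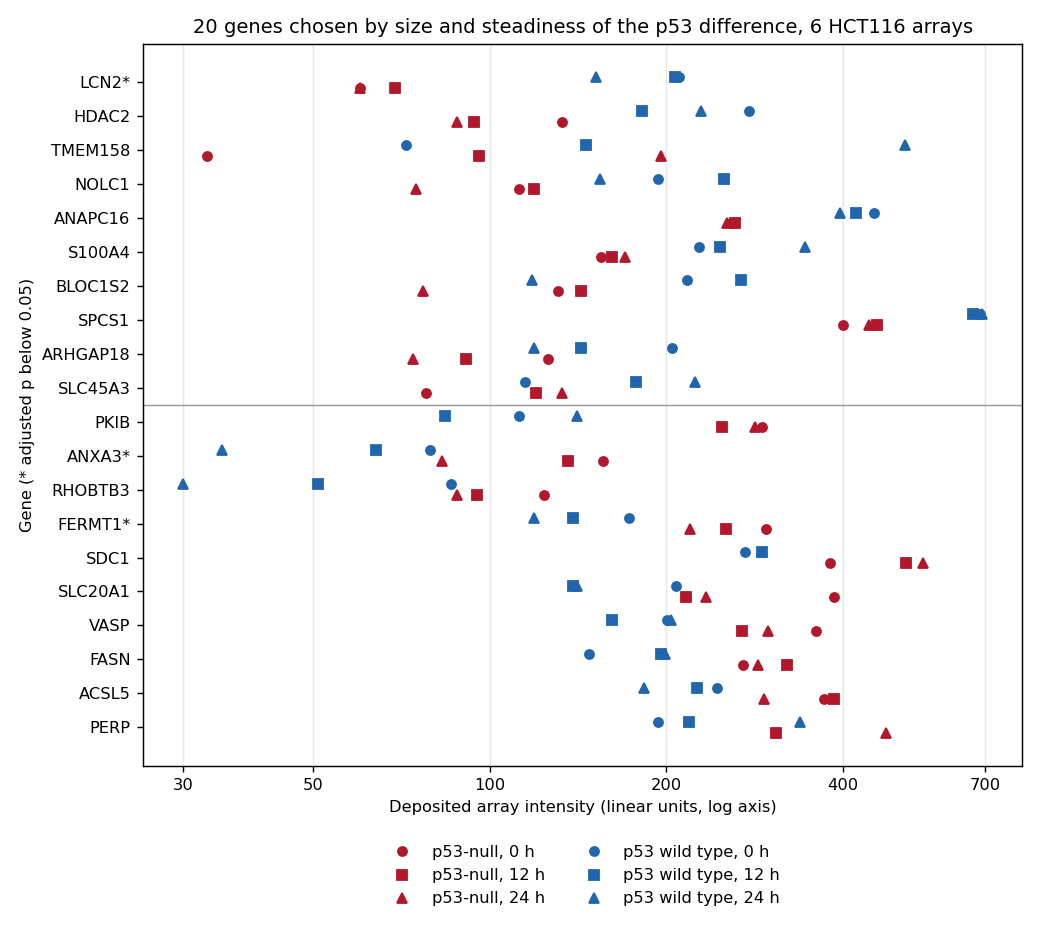
Deposited intensity (log axis) of the 20 genes on each of the 6 HCT116 arrays, with null arrays in red, wild-type arrays in blue and the time given by the symbol. Genes above the line are higher in wild-type cells, genes below it are lower, and a star marks LCN2, ANXA3 and FERMT1, the 3 called genes.

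The p53 target lists were then read by role, with 96 of the 142 annotated genes bright enough to be tested. None was called. The mean difference was above 0 in 66 of 96, where 53.7% of all tested genes were above 0, with a median of 0.05 against 0.01 over all tested genes. At all 3 times 33 were higher and 12 lower, beside 16.9% and 11.2% of all tested genes. The medians at 0, 12 and 24 h were 0.02, 0.06 and 0.08. The filter keeps a gene through its mean over both genotypes, so a dim gene that is high in one can enter by it.

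Among 11 tested arrest genes, 5 had a mean above 0. CDKN1A, the cyclin-dependent kinase inhibitor p21, read 212, 236 and 227 in null cells and 313, 336 and 229 in wild-type cells (0.35, SE 0.111, limma adjusted p = 0.546). Its genotypes were apart at 0 and 12 h and level at 24 h. KLF4, an arrest-linked transcription factor, read 291, 318 and 385 against 279, 282 and 264, with all wild-type values below the null range. BTG1, HBEGF, PPP1R13L, GTSE1 and PTP4A1 also had means below 0, from -0.20 to -0.04. PLK2, a dim polo-like kinase, read 22, 23 and 23 against 0, 15 and 4.

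Of 9 tested genes that feed back on p53, 5 had a mean above 0, and TP53INP1 was the largest. MDM2, the ubiquitin ligase that degrades p53, was level between genotypes at 245, 284 and 235 against 231, 285 and 256 (0.02, limma adjusted p = 0.971). A dimmer MDM2 probe set read 32, 26 and 16 against 58, 53 and 10 (0.36). A still dimmer one read 11, 18 and 8 against 6, 20 and null (-0.25), and 2 others were null on all 6 arrays. PHLDA3, an inhibitor of AKT, read 340, 337 and 372 against 352, 508 and 442, with its widest gap at 12 h. PPM1D, the phosphatase that dampens the p53 response, and ZMAT3 were null on all 6 arrays and give no value.

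Of 10 tested apoptosis genes, 7 had a mean above 0, all of them small. BBC3, which encodes PUMA, read 573, 536 and 537 against 636, 624 and 564 and did not overlap (0.15, limma adjusted p = 0.727). FAS, the death receptor, was mixed, at 163, 226 and 203 against 183, 214 and 181. EI24 read 279, 313 and 338 against 246, 435 and 408, so it was lower at 0 h and higher under hypoxia. PERP ran the other way at each time, with 307, 308 and 475 in null cells and 194, 219 and 339 in wild-type cells (-0.51, SE 0.0661, limma adjusted p = 0.122). A second, dimmer PERP probe set read 132, 155 and 157 against 115, 150 and 139, a much smaller difference (-0.11). PMAIP1, which encodes NOXA, was null throughout.

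In DNA repair and nucleotide supply only 3 genes were bright enough. PCNA, the polymerase clamp, read 387, 352 and 361 against 519, 541 and 382 (0.37, limma adjusted p = 0.484). It was apart at 0 and 12 h and nearly level at 24 h, as was its second probe set at 200, 204 and 210 against 309, 362 and 229. XPC, another nucleotide excision repair factor, was level (0.05), and ERCC5 was lower at each time (-0.27).

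Of 12 tested metabolic and redox targets, 11 had a mean above 0 and the median was 0.08. FUCA1, a lysosomal fucosidase, read 162, 152 and 208 against 212, 194 and 272, with an even gap at each time (0.35, SE 0.0585, limma adjusted p = 0.253). TIGAR, a fructose-bisphosphatase, read 168, 134 and 103 against 160, 256 and 130, so on this probe set its gap lay under hypoxia. A dimmer TIGAR probe set did not share that course, at 41, 44 and 45 against 56, 55 and 30 (0.07). There the wild-type value was higher at 0 and 12 h and lower at 24 h. GPX1, a glutathione peroxidase, and GAMT, which makes creatine, did not overlap (0.19 and 0.23). SESN2, a stress sestrin, read 451, 440 and 272 against 484, 534 and 272.

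Of 51 tested secreted, surface and other targets, 36 had a mean above 0. GDF15, a stress cytokine, was the brightest of those that differed, at 867, 1147 and 1099 against 1407, 1661 and 1460, with no overlap (0.55, SE 0.0739, limma adjusted p = 0.144). ISG15, a ubiquitin-like protein also induced by interferon, read 300, 240 and 300 against 348, 327 and 428. ATF3, a stress transcription factor, read 240, 257 and 268 against 351, 369 and 277, so its gap had nearly closed at 24 h. ISCU, the iron-sulfur cluster scaffold, read 569, 403 and 388 against 604, 568 and 496, and ANKRA2 read 242, 273 and 265 against 276, 399 and 336. In both the gap was wider under hypoxia than before it. TM7SF3, a membrane protein, and SULF2, a heparan sulfatase, did not overlap (0.31 and 0.22). SDC1, given above, and DUSP4, a phosphatase at 116, 69 and 84 against 103, 25 and 65, were lower in wild-type cells.

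**Figure D4:**
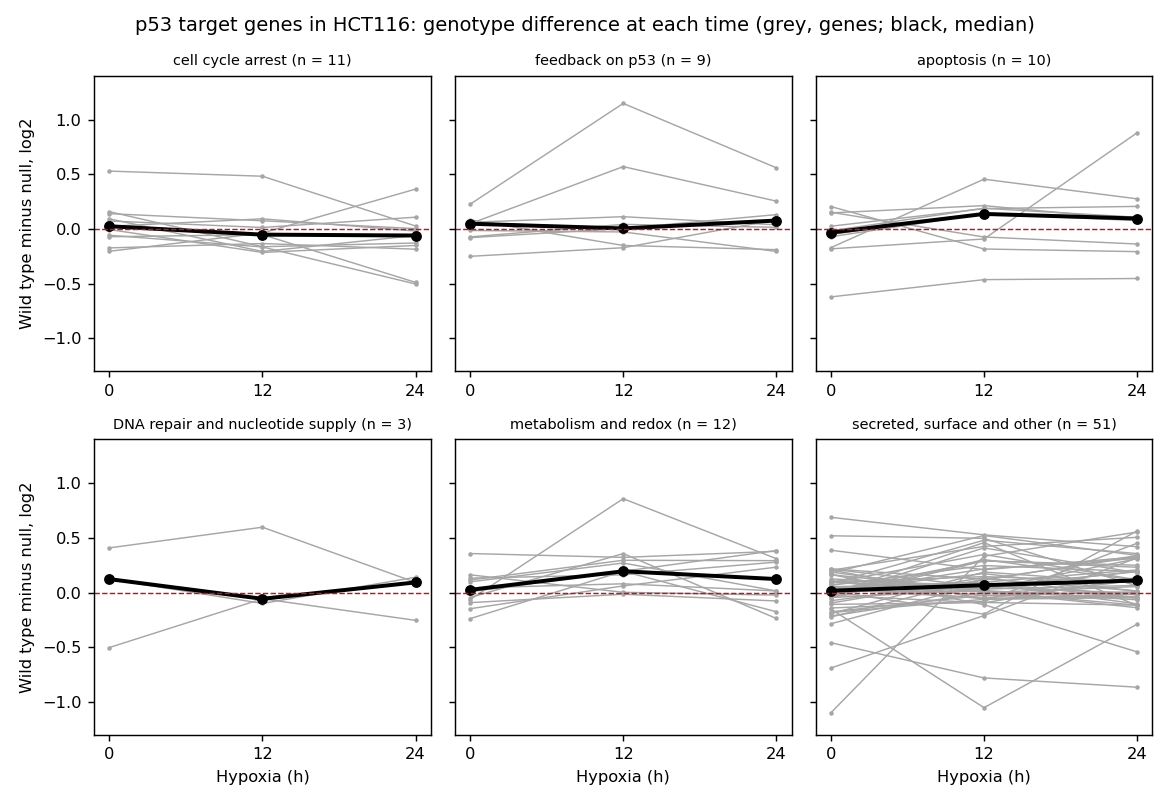
Within-time difference, wild type minus null on the log2(intensity + 16) scale, at 0, 12 and 24 h of hypoxia for the tested members of the 6 p53 target lists. Grey lines are genes, the black line is the list median and the dashed line is 0. Medians stay between -0.06 and 0.20 while single genes, such as TP53INP1 at 1.15 at 12 h, reach further.

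The gap in G2/M genes opened with time. Of 32 annotated genes of mitotic entry and division, 18 were bright enough to be tested. Of these, 6 were lower in wild-type cells at 0 h, 13 at 12 h and 16 at 24 h, and the median difference was 0.08, -0.08 and -0.42. Over all 7614 tested genes 3286, 3574 and 3711 were lower at these times, and the medians were 0.02, 0.00 and 0.00. CCNB1, which encodes the mitotic cyclin B1, read 315, 141 and 87 in null cells and 283, 108 and 19 in wild-type cells. It was lowest at 24 h in both genotypes, and lowest of all in wild-type cells. KIF20A, a mitotic kinesin, read 209, 85 and 68 against 254, 66 and 25. TOP2A, topoisomerase II alpha, read 254, 150 and 206 against 309, 136 and 96. Both were higher in wild-type cells at 0 h and lower at 24 h. CKS2, a kinase-binding subunit, read 461, 352 and 406 against 427, 264 and 238, and BIRC5, or survivin, 347, 269 and 270 against 309, 224 and 194. Means were above 0 in 2 of the 18. CCNF, a cyclin of the F-box family, was the only gene of the list higher at all 3 times, at 340, 245 and 250 against 399, 283 and 276. None was called, and the value at 24 h rests on 1 pair that holds the wild-type array with the most low probe sets. Over all times the list's median was -0.14, and without the 24 h pair it was 0.01. In RNA from whole cultures, fewer cells in G2/M and less RNA per cell cannot be told apart.

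S phase genes had a median difference of 0.21, 0.06 and 0.00 at the 3 times, with 13, 11 and 8 of 16 higher in wild-type cells. Of all tested genes 55.4%, 50.6% and 51.3% were higher at these times, so the count at 24 h lay near that share. FEN1, a flap endonuclease, read 234, 274 and 366 against 322, 355 and 261, and RRM1, a ribonucleotide reductase subunit, 87, 131 and 119 against 130, 122 and 65. Both were higher in wild-type cells at 0 h and lower at 24 h. CHAF1A, a histone chaperone subunit, was higher at each time (0.18). DNA repair genes outside the p53 list had a median of 0.02.

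The counts of means above 0 that follow are to be read against the same 53.7%. Endoplasmic reticulum chaperones had means above 0 in 13 of 13 tested genes, with a median of 0.16, and 7 were higher at all 3 times. CRELD2, a secreted chaperone, read 85, 306 and 376 in null cells and 98, 453 and 503 in wild-type cells (0.38, SE 0.0862, limma adjusted p = 0.337). DNAJB11 read 162, 391 and 338 against 235, 469 and 405, and HSPA5, the chaperone BiP, 825, 1274 and 1129 against 1054, 1364 and 1207. All 3 had higher values under hypoxia than before it in both genotypes and were higher in wild-type cells at each time, and none was called. In H1299 the list's median was -0.03, with 6 of 13 above 0.

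Metallothioneins, which bind zinc and copper, had means above 0 in 7 of 7 tested genes (median 0.19, 5 higher at all 3 times). MT1F read 278, 298 and 277 against 322, 368 and 367 without overlap (0.30, limma adjusted p = 0.337), and MT2A read 1338, 1978 and 1908 against 1895, 2164 and 2072. These are near-identical copies, so their probes may read each other's transcripts and the 7 are not independent. ATF4 stress genes were above 0 in 15 of 18 (median 0.13), led by GDF15 and ATF3. Their median was 0.19 at 0 h, 0.10 at 12 h and 0.04 at 24 h. DDIT4, an mTOR inhibitor, read 120, 178 and 192 against 164, 216 and 222, and PSAT1, a serine synthesis enzyme, ran lower at 317, 281 and 178 against 302, 242 and 117.

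Heat shock genes lay the other way, with 3 of 11 means above 0 and a median of -0.07. DNAJA1, an HSP40 cochaperone, read 195, 194 and 371 in null cells and 166, 152 and 282 in wild-type cells (-0.30, SE 0.0634, limma adjusted p = 0.315), and HSPE1, the mitochondrial HSP10, 106, 184 and 127 against 97, 113 and 99. Both were lower in wild-type cells at each time. Lipid and cholesterol synthesis genes had 4 of 15 means above 0 and a median of -0.08. Beside FASN, DHCR7, the last enzyme of cholesterol synthesis, read 113, 143 and 160 against 89, 96 and 129. IDI1, an isoprenoid enzyme, read 261, 437 and 313 against 236, 319 and 193, and INSIG1, the sterol sensor partner, 69, 227 and 222 against 66, 113 and 154. These 3 were lower at each time, while FADS2, a desaturase, was higher (0.18).

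**Figure D5:**
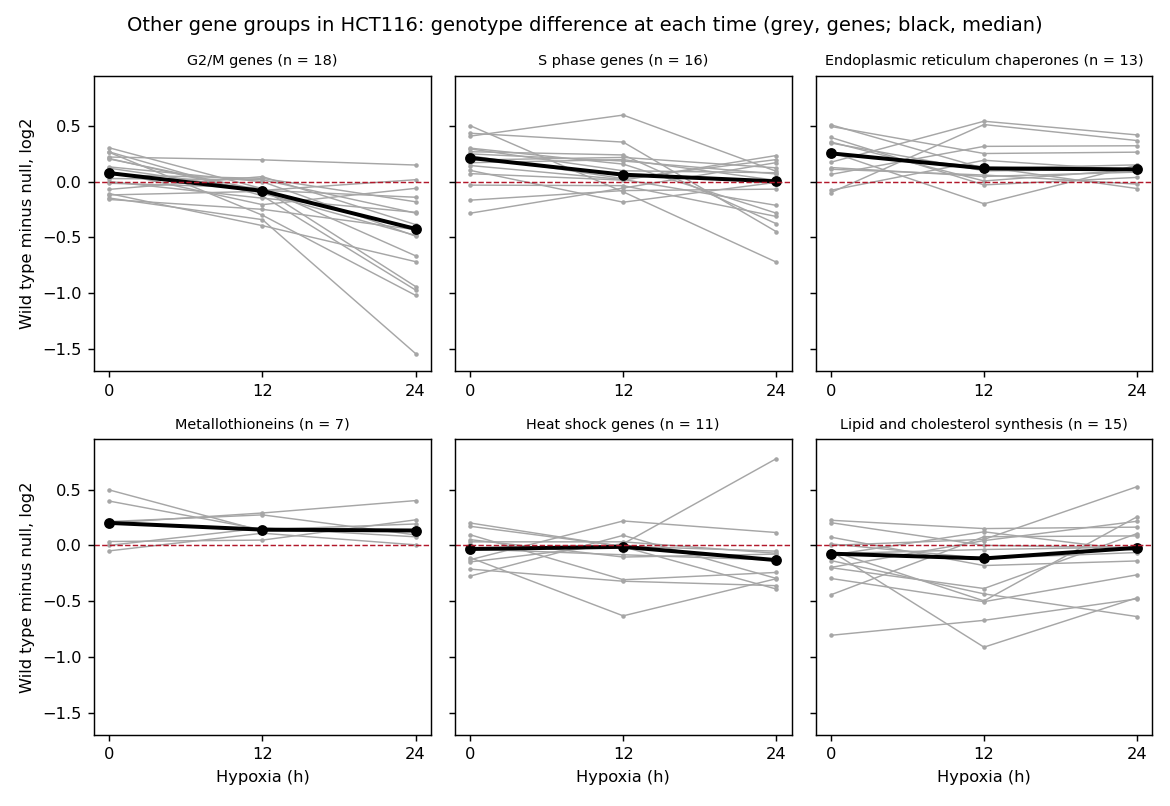
Within-time difference, wild type minus null on the log2(intensity + 16) scale, at 0, 12 and 24 h for 6 gene groups. Grey lines are genes, the black line is the median and the dashed line is 0. The G2/M median goes from 0.08 to -0.42, and the chaperone and metallothionein medians stay between 0.11 and 0.25.

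Averaged over the times, hypoxia genes lay at similar levels in both genotypes. The median level of the 37 tested was 0.75, 2.19 and 2.10 in null cells at 0, 12 and 24 h. In wild-type cells it was 0.72, 2.29 and 2.38, so the genotypes were further apart at 24 h than at 0 h. Each of these medians rests on 1 array. HIF targets outside glycolysis had a median mean difference over the times of 0.07 (14 of 18 above 0) and glycolysis genes 0.06 (12 of 19, near the share of all genes). ADM, the vasodilator peptide adrenomedullin, read 53, 643 and 593 against 64, 712 and 726, and ENO2, an enolase, 125, 808 and 812 against 124, 734 and 868. PLOD2, a collagen lysyl hydroxylase, was null, 321 and 296 in null cells and 11, 421 and 447 in wild-type cells (0.57, SE 0.0869, limma adjusted p = 0.206). SLC2A3, the glucose transporter GLUT3, read 238, 481 and 518 against 205, 274 and 322, so its wild-type values were lower at each time and most under hypoxia (-0.54, limma adjusted p = 0.333).

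Oxidative phosphorylation genes were above 0 in 15 of 18 (median 0.08, range -0.08 to 0.21), led by COX5A, a cytochrome oxidase subunit (0.21). Interferon response genes were above 0 in 12 of 17 with a median of 0.06. HLA-B, a class I antigen-presenting chain, read 553, 564 and 608 in null cells and 778, 766 and 865 in wild-type cells, clear of each other at each time (0.47, SE 0.0594, limma adjusted p = 0.112). Probes for HLA-B can read other class I genes. B2M, its light chain, read 679, 683 and 773 against 930, 856 and 795, and OAS3, an antiviral enzyme, 58, 83 and 103 against 109, 99 and 123. Among NF-kB genes (median 0.03) CXCL8, the chemokine interleukin-8, had a gap that closed with time, at 146, 160 and 150 against 383, 219 and 171. NRF2 targets had a median of 0.06, with SRXN1, a sulfiredoxin, and NQO1, a quinone reductase, higher at each time (0.28 and 0.24). Immediate early genes (-0.01), matrix and mesenchymal genes (0.02) and ribosome biogenesis genes (-0.05) had medians near that of all genes. Within them ZFP36, an mRNA decay factor, read 537, 456 and 448 against 445, 370 and 352 without overlap, and SPARC, a matrix glycoprotein, 125, 121 and 117 against 81, 110 and 108.

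A few genes were listed on all 3 arrays of 1 genotype and null on all 3 of the other. Of 12690 genes there were 2 such in wild-type cells and 4 in null cells, all too dim to be tested. PROM1, the stem cell surface marker CD133, read 22, 71 and 88 in wild-type cells, and EHF, an epithelial ETS factor, 28, 49 and 36. DKK1, a secreted WNT inhibitor, read 45, 30 and 15 in null cells, and the other 3, LINC00341, ELAPOR2 and TIAL1, read 19 or less. PROM1, EHF and DKK1 were null or at most 3 on the 4 H1299 libraries.

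Whether the genotype difference itself shifted with hypoxia was tested as an interaction, the mean difference at 12 and 24 h minus that at 0 h. No gene of 7614 was called (limma, smallest adjusted p = 0.137, for CBR4, a mitochondrial reductase), with 1064 at an unadjusted p below 0.05. CBR4 read 436, 80 and 68 in null cells and 109, 77 and 73 in wild-type cells, and its 436 lies on the array that stood apart. That array is the only null array at 0 h, and no value without it exists. The count was 94 with the upper 40% of genes and 180 with an intensity trend in the variance. Within-time differences correlated across genes at r = 0.356 between 12 and 24 h, and at 0.0963 and 0.0452 between 0 h and these times. Genes are not independent replicates, and no p is attached. The SD of the differences was 0.223 at 0 h, 0.152 at 12 h and 0.189 at 24 h.

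In H1299 no gene was called for p53 in the fit by labelled times (limma, smallest adjusted p above 0.99, 190 at an unadjusted p below 0.05). Nor did the test of the difference between the lines call any (smallest adjusted p = 0.0930, for TSC22D3, 237 at an unadjusted p below 0.05). Each labelled H1299 pair set a library low in hypoxia genes against one high in them. That difference entered the spread in both fits, so their lack of calls says little about p53 in H1299. Of the 20 genes, 13 had a mean difference in H1299 in the same direction as in HCT116, where 48.7% of all tested genes had an H1299 mean above 0. The 13 include ANXA3, whose -0.005 comes from the centring alone, as it was null on all 4 libraries. Most of the 13 were genes higher in wild-type HCT116 cells. In 6 the H1299 genotypes were apart in that direction and in 2 in the other, where 15.7% of all genes were apart on the higher side and 18.4% on the lower. With 2 libraries a genotype, S100A4 read 120 and 105 in null and 143 and 123 in p53-reintroduced libraries, and TMEM158 150 and 129 against 194 and 179. HDAC2, at 361 and 313 against 354 and 344, overlapped. The p53 target lists had a median of 0.01 in H1299, with 53 of 96 above 0. RRM2B read 77 and 109 against 87 and 128, and DDB2 51 and 72 against 60 and 66.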

How the data were processed

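The values analysed are the intensities deposited by the authors for each probe set, whole numbers on a linear scale with null entries, from total RNA hybridised to Affymetrix GeneChips per the labels' protocols. The scaling method and the meaning of null are not given in the sources used here. Null was taken as 0 and values as log2(intensity + 16). Of 17478 annotated probe sets, 16905 had a single symbol (573 had several), and the brightest per gene over the 6 HCT116 arrays gave 12690 genes. Arrays were centred on their gene median, and the upper 60% of genes by mean over these arrays, 7614, were tested with limma 3.58.1 in R 4.3.3 (two-sided, time as a block, Benjamini-Hochberg, threshold 0.05; checked on simulated data). The genes described are the called ones, filled to 10 per direction by the smallest within-time difference, up to 4 per list (8 per p53 list), and genes singled out after their values were seen. The genotype comparison and all 29 lists were chosen with earlier results of these data known. Alternatives covered the pseudocount, centring, null entries, filter, probe sets, prior variance, block and left-out pairs.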

Additional observations from a re-analysis of the deposited data

Results flagged for a closer look

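Of the named genes, ARHGAP18 and ACSL5 stood out because every HCT116 pair differed one way and the H1299 genotypes lay apart the other way. With 2 libraries a genotype, 15.7% of all tested genes were apart in H1299 on the higher side and 18.4% on the lower. ARHGAP18 was higher in p53 wild-type HCT116 cells at each time and read 55 and 41 in null against 30 and 39 in p53-reintroduced H1299 libraries. These H1299 values are dim, and 41 and 39 nearly touch. The HCT116 difference minus the H1299 difference was 0.95 on the log2 scale, and the interaction test did not call it (limma adjusted p = 0.996). ACSL5, the acyl-CoA synthetase, was lower in wild-type HCT116 cells and read 141 and 140 against 154 and 174 in H1299. Its difference between the lines was -0.84 (limma adjusted p = 0.365). Both adjusted p-values carry the limit of the H1299 pairing by labelled times given above.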

How the results depend on the processing

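All 20 named genes kept their direction under every alternative run. They were chosen for differing the same way at all 3 times, so this was largely fixed by the choice. The count of called genes did not hold. For p53 in HCT116, with 3 called, it was 9 with a pseudocount of 64, 7 without centring, 6 after quantile normalization, 11 with an intensity trend in eBayes and 1 with every single-symbol probe set tested. It was 0 with no filter on dim genes, 0 with the upper 40% of genes, 0 without the time block and 0 with every probe set of the array, an alternative added after seeing the data. Without each time pair in turn it ranged from 0 to 2. At an unadjusted p below 0.05 those with 0 calls held 906 (no filter), 233 (no time block) and 1220 (every probe set). The interaction with hypoxia, with 0 called, gave 3 with a pseudocount of 64, 94 with the upper 40% of genes and 180 with an intensity trend. The difference between the lines, also 0, ranged from 0 to 39 without each pair in turn, with 39 without the H1299 pair labelled 0 h and 24 without that labelled 24 h. The H1299 fit called 0 under every alternative, each with the hypoxia difference between the libraries in its spread. Of the list medians, 315 moved by less than the spread over times and 21 by more, among them interferon response in 6 of 14 alternatives (0.005 to 0.09, lowest without the filter), metallothioneins in 5 (0.14 to 0.24) and the p53 repair list in 3 (0.01 to 0.25). The G2/M median ranged from -0.25 to 0.01. The cause was not tested. No paired analysis was possible by replicate number because each HCT116 genotype and time has 1 array, all numbered 1. The alternatives for 1 gene that is not reported here were not run. With 1 array per genotype and time, no difference at a single time has an error.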
